A study of Danio rerio with 12 samples.

Results

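The genes of iron handling were followed in adult zebrafish liver: hepcidin (hamp), transferrin (tfa), the transferrin receptors tfr1a, tfr1b and tfr2, ferroportin (slc40a1), the ferritin heavy chain copies fth1a and fth1b, and ceruloplasmin (cp). They were taken by name and not by a rule on their values, though with earlier results of these data known. All 9 were found among the 32520 genes listed. The copy called fth1b here is listed as FTH1 (ENSDARG00000007975), matched without its copy letter, and hamp is ENSDARG00000102175. Of the 9 genes, 8 had enough counts to be tested between the genotypes, and tfr1a did not.

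Whole liver of adult fish gave 12 RNA libraries, 6 from wild type animals (glo2+/+) and 6 from animals in which CRISPR editing had knocked out both copies of the gene for glyoxalase 2 (glo2-/-), an enzyme of methylglyoxal clearance. Both genotypes carried the transgene Tg(fli1:EGFP), a fluorescent marker of blood vessels, and neither had been trained. The labels give neither sex, iron status, nor what the allele removes. They do not tie each library to its own animal, and the p-values therefore describe the spread between libraries, part of which may be technical.

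Hepcidin is a small peptide hormone made by liver cells. It binds ferroportin, the only known cellular iron exporter, and causes its breakdown, so that iron is held back in cells. In mammals its gene is switched on by iron through BMP and SMAD signalling and by inflammation through interleukin 6 and STAT3. Transferrin carries iron in blood and enters cells through transferrin receptor 1, ferritin stores iron inside cells, and ceruloplasmin is a copper oxidase that readies exported iron for transferrin. In mammals the mRNA of transferrin receptor 1 is stable when cells lack iron and is broken down when they are replete.

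Each library held between 17433960 and 18465485 estimated counts. The transcript of the targeted gene, HAGH, had a mean of 94.8 ± 5.40 CPM in wild type and of 81.5 ± 4.47 CPM in knockout liver (SD, n = 6 per genotype; CPM are counts scaled to a common library total). Its log2 fold change, glo2-/- minus glo2+/+, was -0.22 (SE 0.09, edgeR adjusted p = 0.819). Hepatocyte markers were strong in every library, with fabp10a, the liver fatty acid binding protein, between 24560 and 88020 TPM (transcript abundance, corrected for transcript length and scaled to a common total). Pancreatic tissue differed most between dissections: the 31 exocrine pancreas markers summed to between 265.8 and 6127 TPM in glo2+/+ and between 625 and 12730 TPM in glo2-/- libraries. Erythrocyte markers summed to 113.2 to 454.2 TPM over all libraries, with hbaa1, an adult alpha globin, at 84.9 TPM or more in each. In bulk tissue, fewer cells of a type and less RNA per cell cannot be told apart.

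The genes ranged from an abundant plasma protein to a receptor at the edge of detection. Transferrin had a median of 29230 TPM over the 12 libraries and took 3.40% to 5.50% of all counts. It ranked between the 4th and the 9th gene in every library. Ceruloplasmin followed with a median of 2474 TPM and fth1a with 574 TPM. The ranges of these 3 genes did not overlap with each other or with the next gene, and in all 12 libraries tfa lay above cp and cp above fth1a.

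The middle of the order was crowded. The median was 43.4 TPM for tfr1b, 12.6 TPM for slc40a1, 11.9 TPM for tfr2, 10.7 TPM for hamp and 4.09 TPM for fth1b. Each of these overlapped with its neighbour in the order. The gap between slc40a1, tfr2 and hamp was smaller than their spread: slc40a1 exceeded tfr2 in 8 of 12 libraries, and tfr2 exceeded hamp in 6 of 12. The scarcest gene was tfr1a, the receptor copy that red cell precursors of zebrafish use, with a median of 0.226 TPM and 5 to 34 counts per library. It held 61 counts over the glo2+/+ and 91 over the glo2-/- libraries, too few for the test.

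**Figure D1:**
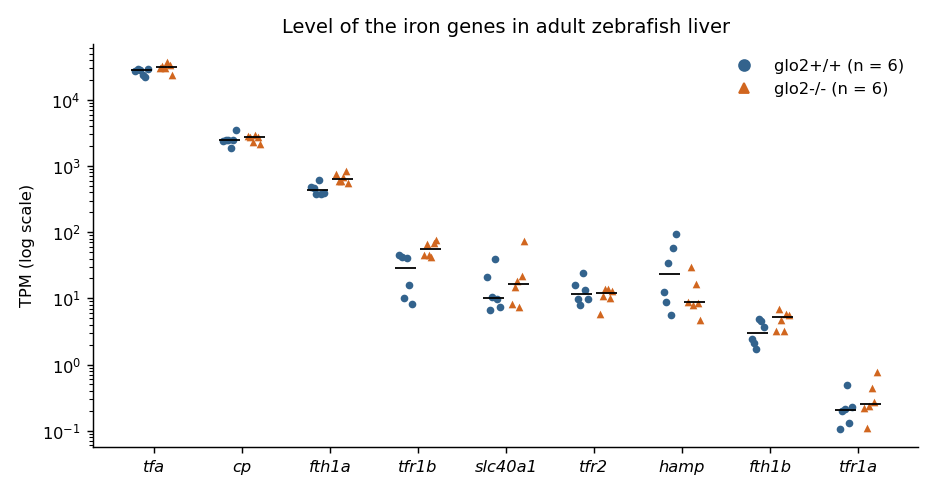
Level of the 9 iron genes in TPM on a log scale, ordered by their median over 12 libraries; circles are the 6 glo2+/+ and triangles the 6 glo2-/- libraries, and bars are medians of each genotype. The 3 most abundant genes, tfa, cp and fth1a, stand clear of each other, while tfr1b, slc40a1, tfr2, hamp and fth1b overlap with their neighbours.

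Hepcidin varied more between libraries than most genes of like abundance. In glo2+/+ liver the 6 libraries read 5.73, 4.85, 20.5, 2.29, 24.8 and 42.9 CPM in replicates 1 to 6. In glo2-/- liver they read 4.67, 12.9, 3.40, 8.51, 3.44 and 1.88 CPM. Wild type replicates 3, 5 and 6 stood above all other libraries, and glo2-/- replicates 2 and 4 led the remaining ones. From the lowest to the highest library the change was 22.9-fold in CPM and 20.5-fold in TPM.

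On the log2 CPM scale the SD of hamp was 1.41 over 12 libraries. This was larger than the SD of 98.3% of the 2374 tested genes whose mean lay within 0.5 of it, which had a median SD of 0.33. Within a genotype the SD was 1.62 in glo2+/+ and 0.98 in glo2-/-. The transferrin receptor tfr1b and ferroportin were also variable, with an SD of 1.00 (96.6th percentile of 526 genes of like level) and 0.95 (95.4th of 923). Those of tfr2, fth1a and fth1b lay at the 82.6th, 74.8th and 71.8th percentile, and tfa and cp had few or no genes of like level to be compared with.

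None of the 8 tested genes differed between the genotypes past an adjusted p of 0.05 (edgeR, adjusted over all 14509 tested genes), against 0.00689% of all tested genes. An unadjusted p under 0.05 was found for 4, against 5.88% of all tested genes. These were 3 genes on the higher side in glo2-/- liver, tfr1b, fth1a and fth1b (2.47% of all tested genes), and 1 on the lower side, hamp (3.41%). DESeq2 gave the same 4 genes an unadjusted p under 0.05 and called 0 of the 9 genes at an adjusted p of 0.05, against 0.178% of all genes it adjusted; the lowest DESeq2 adjusted p was 0.375 (fth1a). The count at an unadjusted p was less steady: it was 2 without glo2+/+ replicate 3 or without glo2+/+ replicate 5 (fth1a and fth1b), and 1 without the 3 libraries richest in pancreas markers (fth1b). It was 3 (tfr1b, fth1a and fth1b) with the mean log2 CPM of the pancreas markers as a covariate. The same 3 remained with the replicate number as a block. With limma on the deposited TPM it was 4, with tfa in place of hamp. The genes were chosen with earlier results of these data known, so this count is a description.

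Hepcidin had a lower level in glo2-/- liver on average, but the groups overlapped. Its median was 4.06 CPM in glo2-/- (1.88 to 12.9) and 13.1 CPM in glo2+/+ (2.29 to 42.9). Of the 6 glo2+/+ libraries, 3 lay above the whole glo2-/- range and the other 3 within it. The log2 fold change, glo2-/- minus glo2+/+, was -1.54 (SE 0.66, 95% interval -2.95 to -0.13, edgeR adjusted p = 0.819). The difference in mean log2 CPM was -1.14. An exact two-sided permutation test of it over all assignments of 6 and 6 libraries gave p = 0.167. The log2 fold change was -1.01 without glo2+/+ replicate 6 and -1.18 with the replicate number as a block. It was -0.80 without the 3 libraries richest in pancreas markers (glo2+/+ replicate 6 and glo2-/- replicates 1 and 5). With the mean log2 CPM of the pancreas markers as a covariate it was -1.49 (SE 0.72, edgeR adjusted p = 0.747).

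Transferrin receptor 1, the main route of iron uptake, stood on average higher in glo2-/- liver in its tfr1b copy. It ranged from 117.0 to 182.7 CPM around a median of 155.7 in glo2-/-, and from 22.4 to 140.1 CPM around a median of 71.3 in glo2+/+. Of the 6 glo2-/- libraries, 4 exceeded the highest glo2+/+ library. The log2 fold change was 0.97 (SE 0.39, 95% interval 0.14 to 1.81, edgeR adjusted p = 0.819). The difference in mean log2 CPM was 1.27 (exact permutation p = 0.0130). The wild type libraries were divided, with 3 between 22.4 and 41.5 CPM and 3 between 101.1 and 140.1 CPM. Without the 3 libraries richest in pancreas markers tfr1b was at 0.78 on the log2 scale (SE 0.39, edgeR adjusted p = 0.973). With the mean log2 CPM of the pancreas markers as a covariate it was at 0.98 (SE 0.40, edgeR adjusted p = 0.734).

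The second receptor, tfr2, senses transferrin-bound iron in hepatocytes of mammals. It stood at a median of 22.4 CPM in glo2-/- (13.8 to 32.4) and 25.2 CPM in glo2+/+ (19.9 to 45.2), with a log2 fold change of -0.33 (SE 0.23, edgeR adjusted p = 0.842) that was -0.14 without glo2+/+ replicate 4. Transferrin differed little in CPM, with a median of 43500 in glo2-/- (31320 to 63360) and 42000 in glo2+/+ (32310 to 57290). Its log2 fold change was 0.07 (95% interval -0.34 to 0.48, edgeR adjusted p = 0.963). In TPM its values were 22330 to 29560 in glo2+/+ and 23840 to 37000 in glo2-/- liver, a difference of 0.23 in log2(TPM + 1) (limma adjusted p = 0.926).

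Both ferritin heavy chain copies were higher on average in glo2-/- liver. The abundant copy, fth1a, had a median of 557.3 CPM in glo2-/- (411.8 to 757.8) and 415.7 CPM in glo2+/+ (302.1 to 466.5), and 5 of 6 glo2-/- libraries lay above all glo2+/+ libraries. Its log2 fold change was 0.51 (SE 0.17, 95% interval 0.15 to 0.88, edgeR adjusted p = 0.819). The difference in its mean log2 CPM was 0.50 (exact permutation p = 0.0152). The scarce copy, fth1b, had a median of 6.38 CPM (5.01 to 8.92) against 4.18 CPM (3.05 to 5.79), with 4 of 6 glo2-/- libraries above all glo2+/+ libraries. Here the log2 fold change was 0.55 (SE 0.21, 95% interval 0.11 to 1.00, edgeR adjusted p = 0.819). The difference in mean log2 CPM was 0.56 (exact permutation p = 0.0238). Across the 12 libraries the copies had a Pearson r of 0.15 (permutation p = 0.645, adjusted over 28 pairs of genes 0.911) and a Spearman rho of 0.29 (permutation p = 0.353). Without the 3 pancreas-rich libraries fth1a was at 0.31 (SE 0.18, edgeR adjusted p = 0.973) and fth1b at 0.65 (SE 0.26, edgeR adjusted p = 0.973). With the mean log2 CPM of the pancreas markers as a covariate, fth1a was at 0.49 (SE 0.16) and fth1b at 0.56 (SE 0.18). Each had an edgeR adjusted p of 0.713 in that fit. The part of pancreatic tissue in the fth1a difference was not tested beyond these fits.

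The iron export genes gave no difference past the spread between libraries. Ferroportin, slc40a1, had a median of 53.8 CPM in glo2-/- (28.6 to 221.8) and 38.9 CPM in glo2+/+ liver (24.9 to 118.3). Its log2 fold change was 0.50 (SE 0.52, 95% interval -0.63 to 1.63, edgeR adjusted p = 0.897), and it turned to -0.19 without glo2-/- replicate 6, the library with 221.8 CPM. Ferroportin is also made by macrophages. Of the macrophage markers, 20 of 20 tested had a log2 fold change below 0, against 7603 of all 14509 tested genes. Their summed level was 118.5 to 296.5 TPM in glo2-/- and 212.7 to 354.5 TPM in glo2+/+. Their mean log2 CPM was 3.24 in glo2+/+ replicate 1, against 2.31 to 2.51 in the other glo2+/+ libraries. That library also had the highest mean of the neutrophil (2.55) and of the kidney and interrenal markers (5.69). In glo2-/- replicate 6, the library with the most slc40a1, the macrophage mean was 2.67, against 1.53 to 2.285 in the other glo2-/- libraries. The part of macrophages in the ferroportin values was not tested. Ceruloplasmin had a median of 4393 CPM in glo2-/- (3776 to 7285) and 5774 CPM in glo2+/+ (4033 to 6459), with a log2 fold change of -0.13 (95% interval -0.53 to 0.27, edgeR adjusted p = 0.922). In log2(TPM + 1) it was 0.0852 (SE 0.136, limma adjusted p = 0.971). The edgeR log2 fold change of cp with 1 library left out lay between -0.26 (without glo2-/- replicate 4) and -0.0494 (without glo2-/- replicate 6).

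**Figure D2:**
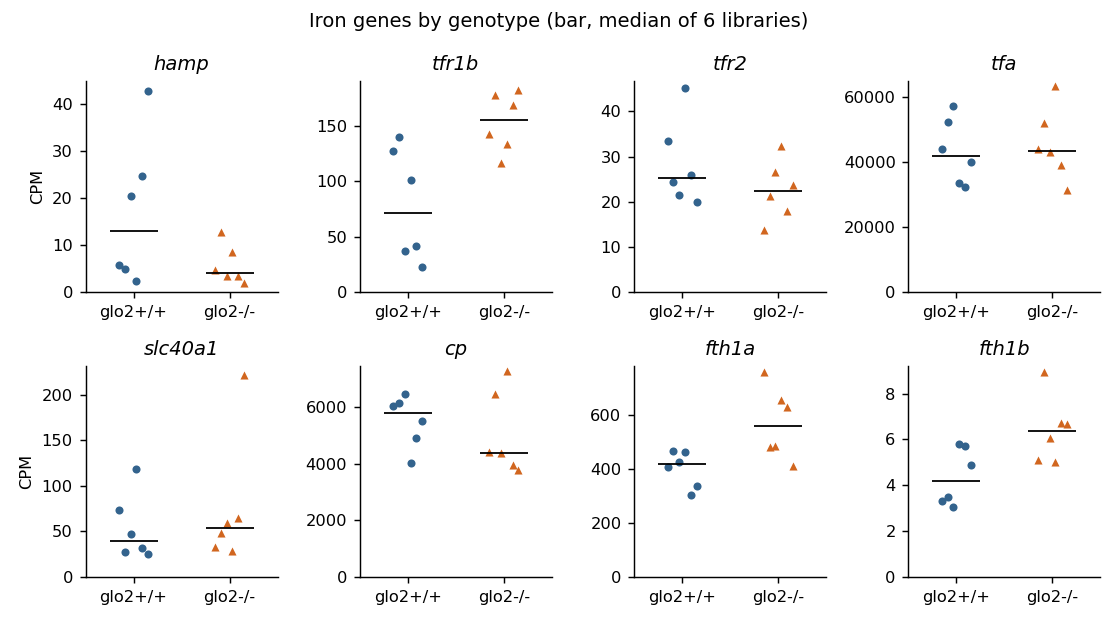
CPM of the 8 tested genes in each library by genotype, with the median of 6 libraries as a bar and every axis starting at 0. The glo2+/+ libraries split widely for hamp and tfr1b, 1 glo2-/- library stands at 221.8 CPM for slc40a1, and the 2 genotypes overlap for each gene.

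**Figure D3:**
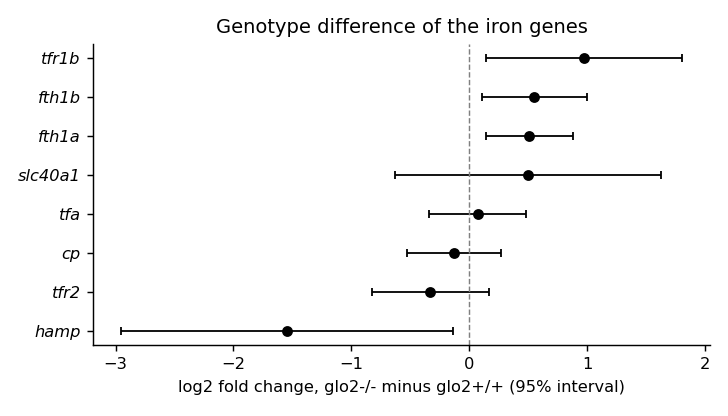
Log2 fold change of each tested gene, glo2-/- minus glo2+/+, with its 95% interval from the edgeR fit of 12 libraries. The intervals of tfr1b, fth1b, fth1a and hamp leave out 0, while none of the genes passed an adjusted p of 0.05.

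High hepcidin and low tfr1b were found in the same libraries. The 3 libraries with the most hamp (20.5 to 42.9 CPM, glo2+/+ replicates 3, 5 and 6) were the 3 with the least tfr1b (22.4 to 41.5 CPM). In the other 9 libraries, hamp lay between 1.88 and 12.9 CPM and tfr1b between 101.1 and 182.7 CPM. The split was the same in TPM, where tfr1b was at most 16.0 in these 3 and at least 40.8 in the others. Of all 14509 tested genes, 42 (0.289%) had these 3 libraries as their lowest 3.

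Because the libraries fell into separate groups for tfr1b, no correlation over all 12 is given. Among the 9 libraries of the larger group the correlation was not past the threshold (Pearson r = 0.20, exact permutation p = 0.603; Spearman rho = 0.08, exact permutation p = 0.843). Within glo2-/- liver r was -0.05 (n = 6, exact permutation p = 0.915). The inverse pattern rests on those 3 wild type libraries.

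Ferroportin RNA tended to be lower where hepcidin RNA was higher, though not past the adjusted threshold. The breakdown of ferroportin by hepcidin acts on the protein, which was not measured here. Over 12 libraries Pearson r was -0.69 (permutation p = 0.0116, adjusted over 28 pairs of genes 0.163) and Spearman rho -0.72 (permutation p = 0.0104, adjusted 0.118). It was -0.72 within glo2+/+ and -0.73 within glo2-/- liver (n = 6 each, exact permutation p = 0.114 and 0.0861). These within-genotype values leaned on single libraries: leaving out glo2+/+ replicate 4 gave -0.45, and leaving out glo2-/- replicate 6 gave -0.44. At the other end, leaving out replicate 2 gave -0.98 in glo2+/+ and -0.92 in glo2-/-. The r was -0.17 in the 4 glo2+/+ libraries left without replicates 4 and 6. In the 4 glo2-/- libraries left without replicates 2 and 4 it was -0.998. Without the 2 libraries farthest from the median of hamp, r was -0.60 (permutation p = 0.0647). The library with the least hamp, glo2-/- replicate 6, had the most slc40a1, and that with the most hamp, glo2+/+ replicate 6, had the least. Next to glo2-/- replicate 6 in both genes stood glo2+/+ replicate 4. These libraries also had the lowest mean log2 CPM of the hepatocyte markers, 10.66 and 10.68, in a range up to 11.26. In glo2+/+ replicate 6 it was 10.89. The part of hepatocyte content in this relation was not tested.

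Transferrin and ceruloplasmin, both secreted plasma proteins, formed the 1 pair of 28 past the adjusted threshold over 12 libraries. Their Pearson r was 0.83 (permutation p = 0.00126, adjusted 0.0353) and Spearman rho 0.86 (permutation p = 0.00071, adjusted 0.0199). Within genotypes r was 0.87 in glo2+/+ (exact permutation p = 0.0153, adjusted 0.0948) and 0.94 in glo2-/- liver (exact permutation p = 0.00139, adjusted 0.0389), and over both it was 0.71 without the 2 libraries farthest from the median of tfa (permutation p = 0.0240). In the deposited TPM r was 0.65 and the adjusted permutation p 0.161 with a pseudocount of 1, so the call depended on the scale. Leaving out any of glo2+/+ replicates 2, 3 and 4 or glo2-/- replicates 2, 4 and 6 also ended the call, with r between 0.78 and 0.82. The mean log2 CPM of the hepatocyte markers was lowest in glo2-/- replicate 6 (10.66) and glo2+/+ replicate 4 (10.68). There cp was 11.88 and 11.98 log2 CPM, and tfa 14.93 and 15.03. The marker mean was highest in glo2-/- replicate 4 (11.26) and glo2+/+ replicate 3 (11.24), with cp at 12.83 and 12.66 and tfa at 15.95 and 15.81. Glo2+/+ replicate 5 had low tfa too (14.98) at a marker mean of 10.94. The part of hepatocyte content in this pair was not tested.

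Hepcidin was higher where both plasma proteins were higher in glo2-/- liver, though not past the adjusted threshold. There r was 0.91 with cp and 0.88 with tfa (n = 6, exact permutation p = 0.0181 and 0.0222, adjusted over 28 pairs 0.207 for both), and with 1 library left out it was at least 0.90 for cp and 0.79 for tfa. In glo2+/+ liver r was 0.35 with cp and 0.04 with tfa (exact permutation p = 0.507 and 0.924), and both changed sign without replicate 4, to -0.49 and -0.42. Over all 12 libraries r with cp was 0.59 (permutation p = 0.0442, adjusted 0.278) and with tfa 0.27 (permutation p = 0.388, adjusted 0.724). Without the 2 libraries farthest from the median of hamp, glo2+/+ replicates 5 and 6, r was 0.84 with cp and 0.86 with tfa (n = 10, permutation p = 0.00184 and 0.00207, both adjusted over 28 pairs 0.0290). Whether the genotypes differ in these relations was not tested.

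The acute phase genes, liver proteins that respond to inflammation, were related to hamp within glo2-/- liver. Their mean log2 CPM over 26 tested genes had an r of 0.96 there (n = 6, exact permutation p = 0.00278, adjusted over 17 lists 0.0472), which was 0.92 or more with 1 library left out and 0.77 without the 2 farthest. In glo2+/+ liver r was -0.12 (exact permutation p = 0.822), and 1 library moved it widely, from -0.80 without replicate 4 to 0.10 without replicate 1. It was -0.95 in the 4 glo2+/+ libraries left without replicates 4 and 6. No relation passed the threshold over all 12 libraries (r = 0.26, permutation p = 0.409; rho = 0.46, permutation p = 0.134, adjusted over 18 lists 0.815 and 0.481). The 3 wild type libraries with the most hamp had acute phase scores of 7.88, 7.91 and 8.08, in the lower part of the range of 7.74 to 8.89. Of the 26 genes, 3 complement components were named for the largest r with hamp, without a test of each. These were c9 (r = 0.71 over 12 libraries, 0.59 within glo2+/+ and 0.91 within glo2-/-), c7a (0.61, 0.38 and 0.70) and cfb (0.58, 0.31 and 0.94). Of the acute phase genes named below, crp5 had an r of -0.09 and itih3b.1 of -0.04 over 12 libraries. The difference between the genotypes in r was again not tested. The mean of 18 hepatocyte markers had an r to hamp of 0.49 over 12 libraries (permutation p = 0.108, adjusted 0.530) and 0.80 within glo2-/- (exact permutation p = 0.0611). Without glo2+/+ replicates 5 and 6 it was 0.82 (n = 10, permutation p = 0.00434, adjusted over 18 lists 0.0781), beside the 0.84 of cp and the 0.86 of tfa. Their part in these relations was not tested.

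Between the genotypes, 4 of the 26 acute phase genes had an unadjusted p under 0.05, 3 higher and 1 lower in glo2-/- (15.4%, against 5.88% of all genes). The pentraxin crp5, 1 of several close copies that may share reads, had a median of 2.50 CPM in wild type and 6.84 CPM in knockout liver and reached 320.5 CPM in glo2-/- replicate 2, the glo2-/- library with the most hamp (log2 fold change 4.68, SE 1.24, edgeR adjusted p = 0.668). The inhibitor heavy chain gene itih3b.1 was at 0.69 (SE 0.27) and c7a at -0.49 (SE 0.20), each with an edgeR adjusted p of 0.819.

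**Figure D4:**
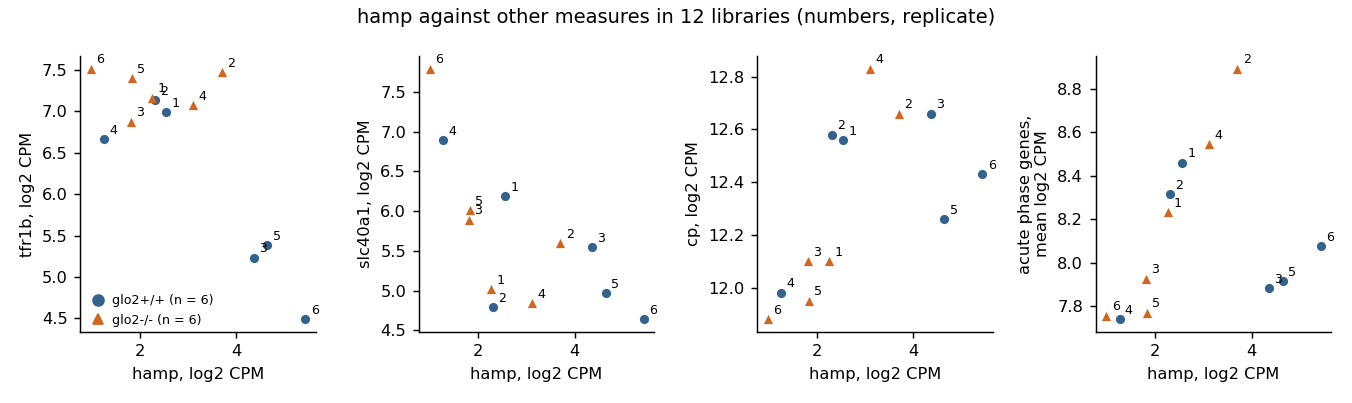
Log2 CPM of hamp in 12 libraries against tfr1b, slc40a1, cp and the mean log2 CPM of 26 acute phase genes; circles are glo2+/+ and triangles glo2-/- libraries, numbered by replicate. Replicates 3, 5 and 6 of glo2+/+ lie at high hamp and low tfr1b, and below the rising line that the glo2-/- libraries form for cp and the acute phase genes. Replicates 1 and 2 of glo2+/+ lie above that line for cp, and slightly above it for the acute phase genes.

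The BMP and SMAD genes, which carry the iron signal to the hepcidin gene in mammals, gave no relation past the threshold as a list. With the mean of 29 tested genes r was 0.45 (permutation p = 0.137, adjusted 0.530), at 0.51 within glo2+/+ and 0.57 within glo2-/-. Of its targets, atoh8 had an r to hamp of 0.63 (0.79 within glo2+/+ and 0.72 within glo2-/-), and ID2 (ENSDARG00000055283), an inhibitor of DNA binding, one of 0.58 (0.93 and -0.14). The ligand BMP2 (ENSDARG00000013409) ran opposite, at -0.54 (-0.60 and -0.52). These 3 genes were named for the largest r with hamp in either direction, without a test of each. Between the genotypes the log2 fold change was above 0 for 14 of the 29 genes and below 0 for 15, with 1 at an unadjusted p under 0.05 (3.45%, against 5.88% of all genes). This was id2b at 0.76 (SE 0.23, edgeR adjusted p = 0.797). Its r with hamp was -0.48 over 12 libraries, opposite to atoh8 and ID2 (0.13 within glo2+/+ and -0.68 within glo2-/-).

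For the interleukin 6 and STAT3 signalling genes as a list, no relation to hamp passed the threshold (r = 0.12 over 12 libraries, permutation p = 0.702, adjusted 0.842). Within it the feedback inhibitor SOCS3 (ENSDARG00000026611), a target of STAT3, had the largest r at 0.52 (0.23 within glo2+/+ and 0.74 within glo2-/-). JAK2 (ENSDARG00000018882) followed at 0.41, and lifra ran opposite at -0.45. They were named for the largest r in either direction, without a test of each. None of 16 tested genes had an unadjusted p under 0.05 between the genotypes. STAT3 itself had a mean of 22.1 ± 4.01 CPM in wild type and 17.2 ± 4.55 CPM in knockout liver (SD, n = 6 per genotype, edgeR adjusted p = 0.819).

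Haem breakdown releases iron, and its key enzyme HMOX1 (ENSDARG00000027529), haem oxygenase 1, was among the genes with a high r to hamp. Over 12 libraries r was 0.71, with 0.64 within glo2+/+ and 0.85 within glo2-/-, and its level ranged from 3.37 to 225.6 CPM. The highest value was in glo2+/+ replicate 6, which also had the most hamp. Its mean was 109.1 ± 63.3 CPM in wild type and 48.3 ± 32.0 CPM in knockout liver (SD, n = 6 per genotype), a log2 fold change of -1.17 (SE 0.56, edgeR adjusted p = 0.819). None of the 15 tested genes of haem breakdown and transport, nor of the 11 of haem synthesis, had an unadjusted p under 0.05. HMOX1 was named by its p between the genotypes, and its r was not tested. The mean of the breakdown and transport list had no relation to hamp past the adjusted threshold. Its r was 0.53 (permutation p = 0.0759, adjusted 0.530) and its rho 0.66 (permutation p = 0.0241, adjusted 0.283).

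Other genes of iron handling did not differ past the threshold between the genotypes. Among 6 tested genes of iron uptake and reduction and 10 of storage, release and iron sensing, 0 had an unadjusted p under 0.05 by edgeR. The metal transporter slc11a2 had a mean of 148.7 ± 34.7 CPM in wild type and 128.6 ± 15.5 CPM in knockout liver (SD, n = 6 per genotype). In the same order, the ferrireductase STEAP4 stood at 170.8 ± 79.8 and 127.8 ± 25.8 CPM. Ncoa4, which delivers ferritin to lysosomes, stood at 186.7 ± 63.7 and 158.8 ± 28.5 CPM. The copper pump ATP7B, which loads ceruloplasmin with copper in mammals, stood at 37.8 ± 3.23 and 43.4 ± 6.75 CPM. A further ferritin gene, fthl27, was at 80.2 ± 56.1 and 56.4 ± 27.1 CPM, and its r with hamp was 0.88 within glo2+/+ and -0.50 within glo2-/-. The mean of the uptake list fell into separate groups of libraries, and over the larger group of 9 its r with hamp was -0.59 (exact permutation p = 0.0859, adjusted over 18 lists 0.530).

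Of 18 tested genes of mitochondrial iron and iron-sulfur cluster assembly, 3 had an unadjusted p under 0.05 (16.7%, against 5.88% of all genes). The assembly factor ISCA2 was at 0.38 (SE 0.15) and the chaperone hscb at 0.45 (SE 0.20) on the log2 scale, glo2-/- minus glo2+/+. The scaffold ISCU (ENSDARG00000035596) was at -0.27 (SE 0.13), so that the 3 did not share a direction, and all had an edgeR adjusted p of 0.819.

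Hypoxia response genes were included because low oxygen lowers hepcidin in mammals, in part through erythropoietin. Of 24 tested, 15 had a log2 fold change above 0, and 5 had an unadjusted p under 0.05 (20.8%, against 5.88% of all genes), each of them higher. The median was 0.14, against -0.01 over all genes. Ankrd37, a target of hypoxia-inducible factor, had a mean of 0.422 ± 0.138 CPM in wild type and 1.03 ± 0.478 CPM in knockout liver (log2 fold change 1.26, SE 0.34, edgeR adjusted p = 0.668). Erythropoietin, epoa, was at 2.39 ± 1.06 and 7.07 ± 7.04 CPM (1.55, SE 0.54, edgeR adjusted p = 0.819), with medians of 2.198 and 4.005 CPM and its highest value, 20.4 CPM, in glo2-/- replicate 4. The oxygen sensor EGLN1 (ENSDARG00000038996) was at 0.571 ± 0.358 and 1.34 ± 0.867 CPM (1.21, SE 0.46, edgeR adjusted p = 0.819). Ankrd37 (0.266 to 1.86 CPM over all libraries) and EGLN1 (0.225 to 3.07 CPM) lay near the edge of detection, beside 0.270 to 1.635 CPM for tfr1a. The mean of the list had no relation to hamp past the threshold (r = -0.25, permutation p = 0.435, adjusted 0.815). Its r was -0.53 within glo2+/+ and 0.63 within glo2-/- liver (n = 6 each, exact permutation p = 0.256 and 0.181). The r of epoa with hamp was 0.19 over 12 libraries, 0.74 within glo2+/+ and 0.56 within glo2-/-. Over 12 libraries that of ankrd37 was -0.37 and that of EGLN1 -0.30. The r of these single genes was not tested.

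Ferroptosis is a form of cell death driven by iron and lipid peroxides, and 2 of its 15 tested genes had an unadjusted p under 0.05 (13.3%, against 5.88% of all genes), both lower in glo2-/-. NFE2L2 (ENSDARG00000042824), a regulator of antioxidant genes, had a mean of 121.1 ± 9.85 CPM in wild type and 87.9 ± 15.5 CPM in knockout liver (log2 fold change -0.46, SE 0.13, edgeR adjusted p = 0.734).

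Ranked by Pearson r with hamp over 12 libraries, 9592 genes with a name and a mean log2 CPM of at least 1 were compared, as a description. The closest were P2RX2, a purine-gated channel (r = 0.84), gsta.1, a glutathione transferase (0.83), and BHMT, which makes methionine from betaine (0.81). POLG, the mitochondrial DNA polymerase, and ICMT, a methyltransferase, followed at 0.78. Gpx4a, the glutathione peroxidase that removes lipid peroxides, was the 6th at 0.75, with 0.80 within glo2+/+ and 0.51 within glo2-/- liver. RASSF6, PEX7, tpmt.1 and ces2a had r between 0.72 and 0.75. Of these 10, gsta.1 was the steadiest within genotypes (0.88 in glo2+/+ and 0.91 in glo2-/-).

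At the other end stood REEP5, a membrane-shaping protein of the endoplasmic reticulum (r = -0.84, with -0.85 within glo2+/+ and -0.87 within glo2-/-). RAB30, TK2, vwa5a and MFSD4A followed, at -0.78 to -0.73. Placed on the same scale, slc40a1 would stand 15th from this end, fth1a 196th, and cp 84th from the top. The 12 points share their library and its scaling, and these ranks were taken from many genes over few libraries.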

How the data were processed

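Per the submitters' processing notes, Trim Galore 0.6.4 and kallisto 0.4.6 were used, with GRCz11 as the build. The authors deposited estimated counts per gene and TPM for each library. Of the estimated counts, 19.1% were not whole. The annotation release, the summing of transcripts to genes and the strand setting are unknown here, so close copies (fth1a and fth1b, tfr1a and tfr1b) and overlapping genes may share reads.

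Gene names were looked up by identifier. Of 349 entries of the other lists, 26 matched no gene. Rounded counts went into edgeR 4.0.16 (R 4.3.3), with filterByExpr, TMM, glmQLFit and glmQLFTest, no covariate beside genotype, Benjamini-Hochberg adjustment over 14509 genes and a threshold of 0.05. The step was tested on simulated data. CPM carries the TMM factors, and log2 CPM a prior count of 2. Single genes were also compared by exact permutation. Relations used 100000 permutations, or every order for 9 or 6 libraries, with Benjamini-Hochberg adjustment. A measure was taken as split where its widest gap was at least 33.3% of its range with 3 or more libraries on each side, a rule set after the values were seen. This applied to tfr1b and to the iron uptake list.

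Named were all members, the 3 genes of each list with the smallest p, in the iron, BMP, STAT3 and acute phase lists also the 3 with the largest r with hamp, and the 10 highest and 5 lowest genes by r. Of these, the ones that bear on the members are described. A gene of the ferroptosis list is not reported here. Members and lists were chosen with earlier results of these data known. Alternatives were DESeq2 1.42.0 and its size factors, other filters, limma 3.58.1 on log2(TPM + 1) and log2(TPM + 0.1), covariates, a replicate block and left-out libraries. Same-numbered libraries share only a number.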

Additional observations from a re-analysis of the deposited data

Results flagged for a closer look

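A library was taken as far from the other 5 of its genotype where its gap to the nearest of them, divided by the range of all 6, exceeded Dixon's 95% critical value. This was found in 3 of 52 sets of 6 values, where chance gives about 3. The macrophage marker score, a mean log2 CPM, was 3.24 in glo2+/+ replicate 1, against 2.31 to 2.51 in the others. The BMP and SMAD score was 3.17 in glo2-/- replicate 2 (others 2.83 to 2.95) and the hypoxia score 3.49 in glo2-/- replicate 4 (others 2.79 to 2.98). Of the 8 tested iron genes 0 passed this limit. The nearest was slc40a1 in glo2-/- replicate 6, with 7.79 log2 CPM against 4.84 to 6.01 in the others and a gap of 0.605 of the range.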

How the results depend on the processing

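No iron gene passed the threshold under any of the 22 alternatives. Over all genes 1 passed, 0 with the stricter filter, 34 with DESeq2, and 1 to 3 with 1 library left out. The log2 fold change of hamp ranged from -1.94 to -1.01 with 1 library left out. That of cp was 0.0852 in TPM with either pseudocount. With 1 library left out that of tfa ranged from -0.0447 (without glo2-/- replicate 4) to 0.171, and that of slc40a1 from -0.19 (without glo2-/- replicate 6) to 0.91. Pairs past the threshold numbered 0 in TPM with either pseudocount, and 0 or 1 with 1 library left out. No list passed with hamp over 12 libraries in any alternative; r with the STAT3 list was -0.0230 without glo2-/- replicate 6 and reached 0.30 without glo2+/+ replicate 3. The cause was not tested. With the replicate block hamp was at -1.18, and the block changed no call. Deviations of same-numbered libraries correlated between -0.28 and 0.21, and 2 of 12 libraries correlated best with their own number. The stricter filter left out hamp and fth1b. Low counts kept tfr1a from being tested.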
